A study of Homo sapiens with 5 samples.

Results

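The SWI/SNF complexes slide and evict nucleosomes with the energy of ATP, and the genes that encode their ATPases and core subunits were examined here for binding by the complex itself. The 10 genes were the ATPase genes SMARCA4 and SMARCA2, ACTL6A, and the core subunit genes SMARCB1, SMARCC1, SMARCC2, SMARCE1, SMARCD1, SMARCD2 and SMARCD3. They were chosen by name from 19689 genes with a protein-coding transcript. Peaks were taken over each gene and 10 kb to each side. Binding had been profiled in SNU638, a cell line established from human gastric cancer, for which the labels give no treatment. The assay was CUT&Tag, in which an antibody guides the Tn5 transposase to cut and tag the DNA beside its target. The 5 libraries comprised 1 each with anti-BRG1, anti-ACTL6A and anti-NRF2 and 2 with control IgG (IgG 1 and IgG 2). With 1 library per antibody no difference could be set against replicate error, so values are given without tests or p-values. The lists hold neither expression nor genotype, so the cell line label could not be checked against marker genes.

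SMARCA4 encodes BRG1, the target of the first antibody, and SMARCA2 encodes BRM, the ATPase that takes its place in other complexes. SMARCB1, SMARCC1, SMARCC2, SMARCE1 and one of the SMARCD proteins form the core around which the complex assembles, and ACTL6A is an actin-related protein that binds the ATPase and also belongs to the INO80 and TIP60 complexes. NRF2 is the transcription factor that switches on antioxidant genes through the antioxidant response element (ARE). Subunits of SWI/SNF, ARID1A above all, are often mutated in gastric cancer.

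All 10 genes had a BRG1 peak at a transcriptional start site (TSS), that is, within 1 kb of the first base of one of their protein-coding transcripts. ACTL6A peaks lay at a TSS of 7 genes and NRF2 peaks at a TSS of 4, and neither IgG library had a peak anywhere in the 10 regions. IgG peaks were rare over the regions of all 19689 genes too, in 7 of them for IgG 1 and 328 for IgG 2. Of all genes, 63.5% had a BRG1 peak at a TSS, 38.5% an ACTL6A peak and 28.1% an NRF2 peak. SMARCD2 held the highest BRG1 and NRF2 peaks of the group, and the ACTL6A gene held the highest ACTL6A peak. SMARCA4, SMARCB1, SMARCE1 and SMARCD3 had BRG1 alone at the main start. Of all genes with BRG1 at a TSS, 58.0% also had ACTL6A at one and 43.6% NRF2. The share of all genes with BRG1 alone was not worked out.

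The DNA under a few of these peaks is shown first. All sequences are on GRCh38 and read 5′ to 3′ on the strand of the gene. Exons were left out, so some of these stretches stop short of the peak's highest point (the summit). The start peaks of highest and lowest rank in the BRG1 list (SMARCD2 and SMARCD3) are followed by those of ACTL6A, where all 3 antibodies met, and SMARCA2, where ACTL6A was not called. The last pair are the highest BRG1 peaks of the regions away from any protein-coding start. ACTL6A and SMARCA2 were added after their values had been seen. Capitals mark matches on either strand to the GC box, whose letters are GGGCGG, to the CCAAT box, which is named for its letters, or to the motif of the TEAD factors, written GGAATG.
SMARCD2 start, chr17:63842869-63843019, minus strand: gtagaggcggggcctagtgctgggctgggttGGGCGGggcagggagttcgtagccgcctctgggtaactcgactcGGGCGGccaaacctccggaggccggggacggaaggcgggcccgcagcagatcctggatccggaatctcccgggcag
SMARCD3 start, chr7:151249217-151249324, minus strand: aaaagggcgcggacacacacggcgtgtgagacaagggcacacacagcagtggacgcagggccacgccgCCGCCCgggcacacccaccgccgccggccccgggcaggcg
ACTL6A start, chr3:179562686-179562885, plus strand: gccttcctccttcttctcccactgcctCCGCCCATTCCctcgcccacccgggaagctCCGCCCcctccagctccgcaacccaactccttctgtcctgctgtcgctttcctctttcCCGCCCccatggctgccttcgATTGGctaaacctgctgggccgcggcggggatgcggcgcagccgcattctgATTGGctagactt
SMARCA2 start, chr9:2014980-2015179, plus strand: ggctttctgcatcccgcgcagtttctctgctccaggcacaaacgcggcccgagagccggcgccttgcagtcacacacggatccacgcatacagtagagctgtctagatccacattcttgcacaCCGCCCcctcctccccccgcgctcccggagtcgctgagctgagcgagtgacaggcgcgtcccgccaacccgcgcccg
SMARCD2 upstream flank, chr17:63849024-63849223, minus strand: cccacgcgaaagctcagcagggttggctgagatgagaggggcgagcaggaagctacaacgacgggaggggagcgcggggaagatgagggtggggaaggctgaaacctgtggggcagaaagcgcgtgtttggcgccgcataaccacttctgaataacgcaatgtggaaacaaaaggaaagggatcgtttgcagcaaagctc
SMARCD1 upstream flank, chr12:50075272-50075471, plus strand: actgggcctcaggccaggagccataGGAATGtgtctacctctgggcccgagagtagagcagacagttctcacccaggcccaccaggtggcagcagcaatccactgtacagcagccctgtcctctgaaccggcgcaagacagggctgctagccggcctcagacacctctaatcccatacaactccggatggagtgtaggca

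In the SMARCD2 stretch the GC boxes began at -303 and -259 from the start, where negative values are upstream. The ACTL6A stretch held 3 GC boxes and 2 CCAAT boxes, the latter on the opposite strand (ATTGG), at -104 and -53. Its TEAD match shared 1 base with the first GC box.

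The BRG1 list held 48793 peaks, the ACTL6A list 23917, the NRF2 list 9045, IgG 1 11 and IgG 2 1746. A peak is an interval where MACS2 counted more fragments (sequenced pieces of DNA) than expected. The deposited lists hold no reads, and the number of fragments at each summit was worked out from the fold enrichment and p-value given by the caller. Its median was 10 for BRG1, 6 for ACTL6A and 17 for NRF2. The q-value is the caller's p-value adjusted for the number of tests, and a larger -log10 q marks a clearer peak. Rank is the position of a peak in its own list by -log10 q, with rank 1 the highest, and fragments, q and rank were not compared between lists as if they measured amounts. The main start of a gene was that of its MANE Select transcript, the single transcript agreed on by the reference annotations.

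Among the ATPase genes, SMARCA2 had the stronger BRG1 peak at its start. SMARCA4 (chromosome 19, 10960932 to 11079426, plus strand, ENSG00000127616) had a BRG1 peak at 10960468 to 10960945 just upstream of the gene. Its summit lay at -429 bp from the main start, with 19 fragments where 1.60 were expected, 7.69-fold enrichment and a -log10 q of 11.8 (rank 12273, within the top 25.2%). Neither ACTL6A nor NRF2 had a peak there. By rank, the start of the gene for the BRG1 antibody's own target stood below the starts of 7 of the 10 genes, and only SMARCB1 and SMARCD3 had lower ones.

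A second site in SMARCA4 carried both BRG1 and ACTL6A. It lay in intron 29, 75043 bp downstream of the main start, and the summits of both antibodies fell on the same base. BRG1 had 12 fragments there at 11035966 to 11036229 (rank 18994) and ACTL6A 8 fragments at 11035835 to 11036142 (rank 6288, top 26.3%). These peaks lay 944 bp and 813 bp from the start of a short annotated transcript (ENST00000592158), close to the 1 kb limit, and this transcript alone put ACTL6A at a TSS of SMARCA4. The other BRG1 peaks of the region had 4 to 7 fragments.

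SMARCA2 (chromosome 9, 1980290 to 2193624, plus strand, ENSG00000080503) had a BRG1 peak at 2014846 to 2015451 across its main start. The summit at -267 bp had 51 fragments against 3.69 expected, with a -log10 q of 35.9 (rank 2321, top 4.76%), the second highest start peak of the group. NRF2 had a peak inside it at 2014900 to 2015250, with 18 fragments and its summit 81 bp from that of BRG1 (rank 3817, top 42.2%). A further BRG1 peak with 24 fragments lay in intron 1. ACTL6A had no peak at this start, and the 3 ACTL6A peaks of the region had 3 to 4 fragments and overlapped no BRG1 peak. One of them, in intron 13 (2076441 to 2076638), lay 157 bp from an internal transcript start and alone put ACTL6A at a TSS of SMARCA2.

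The ACTL6A gene (chromosome 3, 179562886 to 179588407, plus strand, ENSG00000136518) was bound at its start by all 3 antibodies. The ACTL6A peak at 179562656 to 179563075 had 32 fragments against 1.18 expected, 15.1-fold enrichment and a -log10 q of 30.0, and ranked 261, within the top 1.09% of its list. BRG1 had 38 fragments against 2.18 at 179562610 to 179563182 (rank 3307, top 6.78%), and both summits fell on the same base at -37 bp. The NRF2 peak at 179562740 to 179563214 had 25 fragments against 2.70 (rank 1389, top 15.4%), with its summit at -93 bp. Within the ACTL6A list, no other peak of the 10 regions ranked as high as the one at the start of ACTL6A's own gene. A second pair lay in intron 1, where BRG1 had 23 fragments and ACTL6A 9, with summits 26 bp apart. The last BRG1 peak of the region, in intron 5, had 3 fragments.

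**Figure D1:**
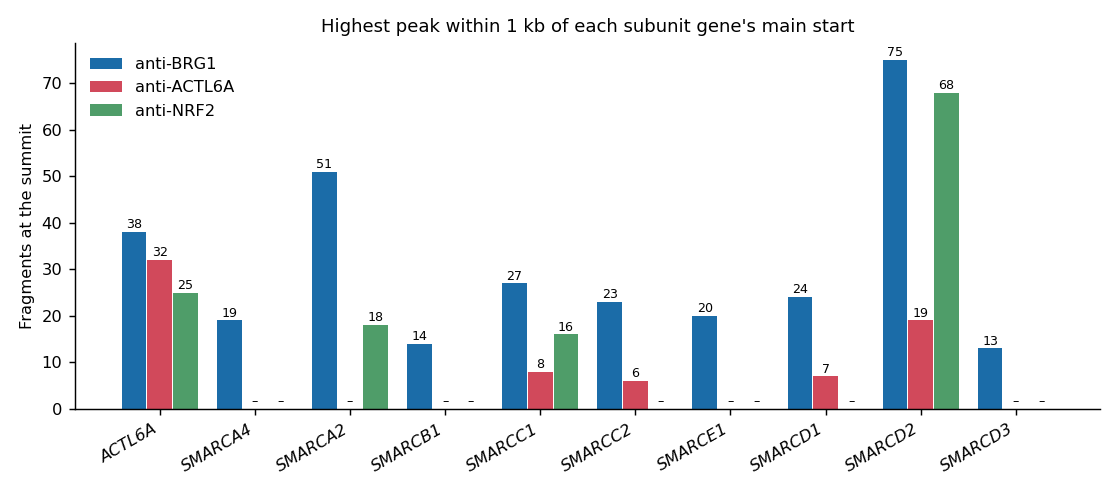
Fragments at the summit of the highest peak within 1 kb of each gene's main start, for anti-BRG1, anti-ACTL6A and anti-NRF2 (1 library each); a dash marks no peak. BRG1 has a bar at all 10 genes, from 13 fragments at SMARCD3 to 75 at SMARCD2, while ACTL6A has 5 bars and NRF2 has 4.

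Of the core subunit genes, SMARCC1 was bound at its start by all 3 antibodies, SMARCC2 by BRG1 and ACTL6A, and SMARCB1 and SMARCE1 by BRG1 alone. SMARCC1 and SMARCC2 encode paralogous scaffold proteins on which the core is built. SMARCC1 (chromosome 3, 47585269 to 47782106, minus strand, ENSG00000173473) had a BRG1 peak at 47781765 to 47782430 with 27 fragments against 1.67 and its summit at -101 bp (rank 6333, top 13.0%). ACTL6A had 8 fragments at 47781970 to 47782207 (rank 7820, top 32.7%), with its summit 34 bp from that of BRG1. NRF2 had 16 fragments at 47781718 to 47782176 (rank 5818, top 64.3%), 92 bp from the BRG1 summit. This NRF2 peak was low in its list, unlike those of SMARCD2 and ACTL6A. BRG1 also had 4 fragments in intron 19, 7 in the upstream flank, and 15 at the start of the neighbouring gene CSPG5.

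SMARCC2 (chromosome 12, 56162359 to 56189567, minus strand, ENSG00000139613) had a BRG1 peak at 56189651 to 56190332, upstream of the gene, with 23 fragments and its summit at -306 bp (rank 10309, top 21.1%). The ACTL6A peak at 56189690 to 56190072 lay wholly inside it with 6 fragments (rank 11160, top 46.7%). The region's highest BRG1 peak was not at SMARCC2 but at MYL6, a myosin light chain gene in the downstream flank, with 37 fragments (rank 4550), where ACTL6A had 10. A weaker BRG1 peak lay in intron 1 (9 fragments), and those in intron 11 and coding exon 28 had 4 and 7.

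SMARCB1 encodes the core subunit that contacts the nucleosome, and it is lost in rhabdoid tumours. In SMARCB1 (chromosome 22, 23786931 to 23838009, plus strand, ENSG00000099956) BRG1 had 14 fragments against 1.58 at 23787033 to 23787318, with its summit at 140 bp in the 5′ UTR of exon 1 (rank 19323, top 39.6%). Among the highest BRG1 peaks at the 10 main starts, only this one had its summit downstream. The region held 8 BRG1 peaks, more than any other of the 10, but the remaining 7 had 3 to 10 fragments. ACTL6A had 3 peaks away from the start with 3 to 6 fragments, of which those in intron 5 and in the 3′ UTR of exon 9 overlapped BRG1. The NRF2 peak in intron 6, with 10 fragments (rank 7403, top 81.8%), overlapped neither.

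SMARCE1, whose product carries an HMG box that binds DNA, lies on chromosome 17 (40624962 to 40648654, minus strand, ENSG00000073584). BRG1 had 20 fragments against 0.742 expected at 40648071 to 40648353, a fold enrichment of 12.1 with the summit at -352 bp (rank 6854, top 14.0%). Only 1 other peak was called in the region, a BRG1 peak of 11 fragments in the downstream flank. No ACTL6A or NRF2 peak was found in it.

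The SMARCD genes encode alternative versions of a core subunit, and their starts spanned the whole range of the group. SMARCD2 (chromosome 17, 63832081 to 63843065, minus strand, ENSG00000108604) had a BRG1 peak at 63842629 to 63843202 with 75 fragments against 4.48, 13.9-fold enrichment and a -log10 q of 59. It ranked 648 (top 1.33%), with its summit at -366 bp. Inside it, ACTL6A had 19 fragments against 1.14 at 63842833 to 63843095 (rank 1628, top 6.81%). NRF2 had 68 against 8.77 at 63842671 to 63843208 (rank 364, top 4.02%). The NRF2 summit was 143 bp and the ACTL6A summit 94 bp from that of BRG1.

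SMARCD2 also had the densest BRG1 peaks, 5 in 31.0 kb. BRG1 and ACTL6A met at intron 5, where they had 25 and 12 fragments and summits 2 bp apart. The site lay 7606 bp downstream of the main start by BRG1. These peaks lay 234 bp (BRG1) and 177 bp (ACTL6A) from the start of another transcript (ENST00000450364), and so were counted at a TSS. BRG1 and ACTL6A met again in the upstream flank, where the peaks began at the same base (63848950) and had 23 and 11 fragments. The pseudogene TCAM1P has its annotated start there. A BRG1 peak of 29 fragments lay in intron 1. At the shared start of FTSJ3 and PSMC5, a proteasome ATPase gene, BRG1 had 51 fragments (rank 1337) and NRF2 32 (rank 1695), with no ACTL6A peak.

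SMARCD1 (chromosome 12, 50085200 to 50100707, plus strand, ENSG00000066117) had a BRG1 peak at 50085051 to 50085239 with 24 fragments and its summit at -201 bp (rank 8967, top 18.4%). ACTL6A had 7 fragments inside it at 50085072 to 50085234, 6 bp from that summit (rank 14526, top 60.7%). A weaker BRG1 peak lay in exon 1 with 9 fragments. Near the edge of the upstream flank, inside ASIC1, BRG1 had 14 fragments and ACTL6A 10 in overlapping peaks. At GPD1, downstream, BRG1 had 18.

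SMARCD3 (chromosome 7, 151238764 to 151277896, minus strand, ENSG00000082014) had the weakest start peak of the 10. BRG1 had 13 fragments against 3.16 at 151249217 to 151249377, with a -log10 q of 2.66 (rank 36607, top 75.0%), and the peak lay 523 bp from the main start. It was the only one of the 10 that was lost when a -log10 q of at least 5 was required. The start of a longer transcript (ENST00000392811) had a BRG1 peak of 10 fragments 103 bp away. Its -log10 q was 4.37 (rank 26876, top 55.1%), so it ranked above the peak at the main start. The region had no ACTL6A or NRF2 peak, and its other BRG1 peaks, of 13 and 15 fragments, lay at the start of CHPF2.

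**Figure D2:**
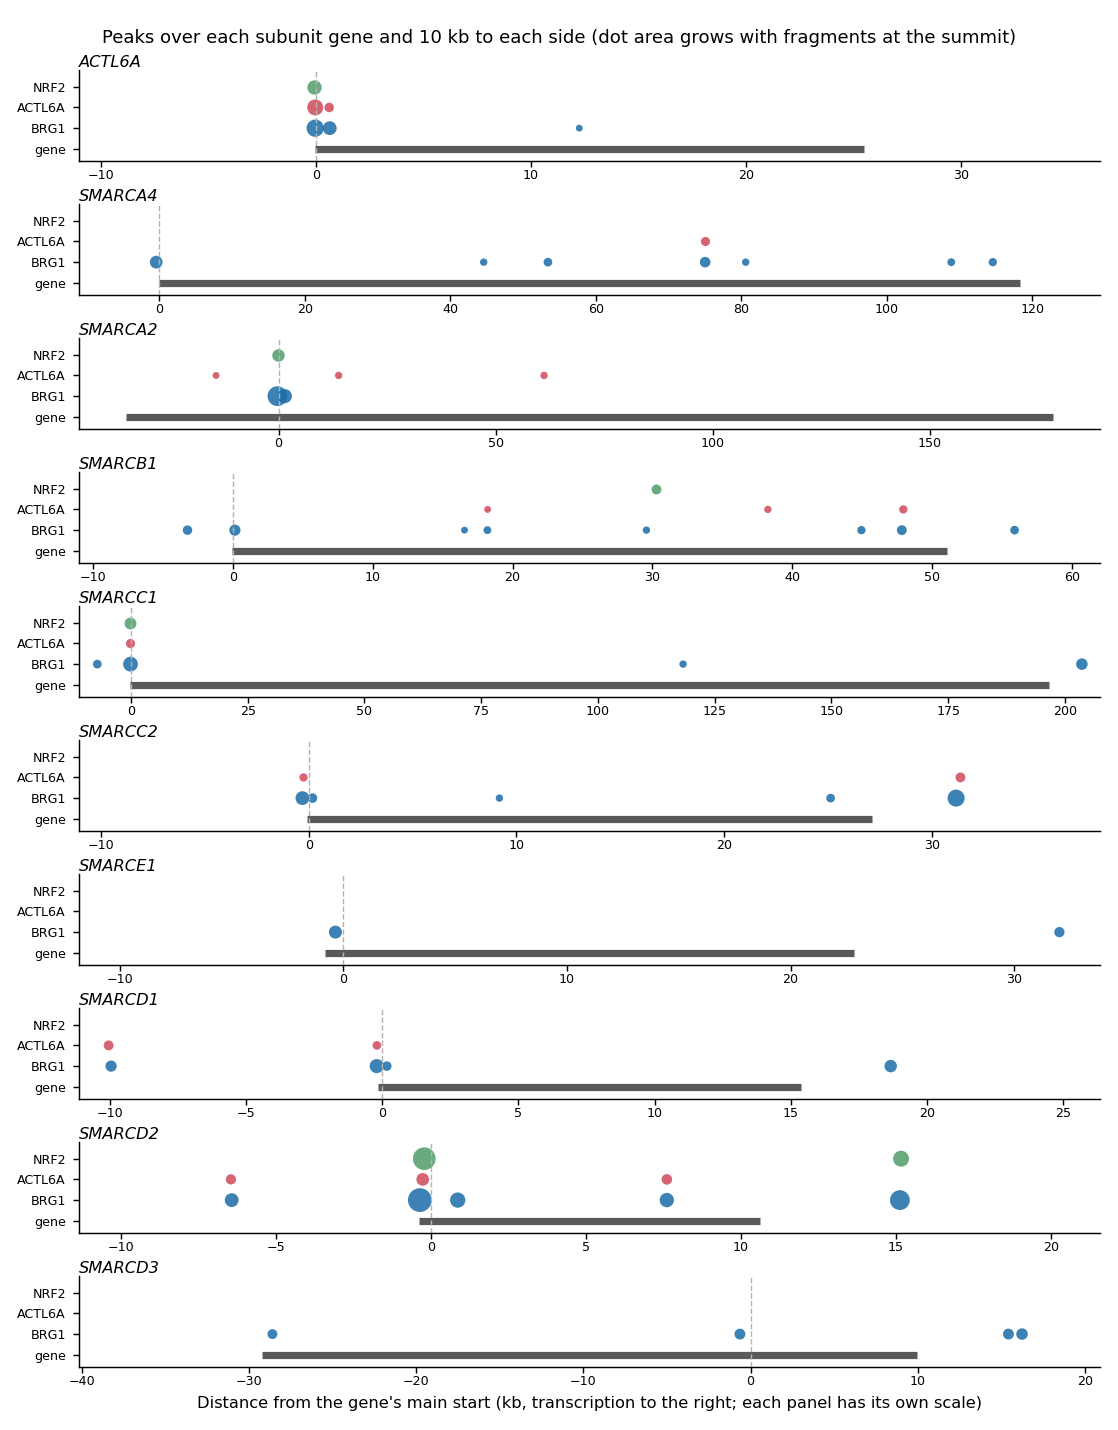
Peaks over each of the 10 genes and 10 kb to each side, by distance of the summit from the main start (kb, transcription to the right, each panel with its own scale); the grey bar is the gene and dot area grows with fragments at the summit. Most of the large dots stand at the dashed line of the start or in a flank that holds a neighbouring gene's start, as at SMARCC2 (MYL6, 37 fragments) and SMARCD2 (FTSJ3 and PSMC5, 51 fragments).

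At the main starts most summits of the highest peaks lay upstream. For the highest BRG1 peak of each gene, summits were upstream of 9 of the 10 starts. They lay between -638 and 140 bp, with a median of -286 bp. BRG1 had 14 peaks at the main starts in all. The second peaks of ACTL6A (639 bp), SMARCC2 (177 bp), SMARCD1 (170 bp) and SMARCD2 (857 bp) had their summits downstream. Only peaks within 1 kb of the main start were taken, and no share of upstream summits over all genes was worked out. The side depends on the start chosen. At the ACTL6A gene the highest BRG1 summit (179562889) lay downstream of another annotated start (179562886). At SMARCD2, on the minus strand, the highest BRG1 summit (63843051) lay downstream of another start (63843065). The highest BRG1 summits of SMARCA2, SMARCC1, SMARCE1 and SMARCD3 also lay inside the annotated gene, though upstream of its main start. The highest ACTL6A summits at 5 main starts lay between -272 and -37 bp and the 4 NRF2 summits between -223 and -93 bp, all upstream. Of these, the ACTL6A summits at the ACTL6A gene, SMARCC1 and SMARCD2 lay inside the annotated gene. So did the NRF2 summits at SMARCA2, SMARCC1 and SMARCD2. A second ACTL6A peak at the ACTL6A gene had its summit downstream, at 613 bp. Each of the 5 highest ACTL6A peaks and the 4 NRF2 peaks at a main start shared bases with the highest BRG1 peak there. Of all peaks at a TSS, 87.1% of those of ACTL6A and 94.9% of those of NRF2 overlapped BRG1. The ACTL6A and BRG1 summits at these starts were 0 to 94 bp apart. At the main start, 3 genes had all 3 antibodies, 2 had BRG1 and ACTL6A, 1 had BRG1 and NRF2, and 4 had BRG1 alone. The shares of all genes with each combination at the main start were not worked out, so these counts are no trait of the group. At any TSS, all 3 antibodies were found in 22.1% of all genes.

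These counts are to be read against all genes. A BRG1 peak lay at a TSS of 63.5% of them and an ACTL6A peak of 38.5%, against 10 and 7 of the 10 subunit genes. For NRF2 it was 28.1%, against 4 of 10. IgG 1 had a peak at a TSS of 0% of genes and IgG 2 of 0.152%. At the main start alone, for the 19061 genes with a MANE Select transcript, the shares were 60.0% for BRG1, 34.7% for ACTL6A and 26.1% for NRF2, against 10, 5 and 4 subunit genes. This count is given as well because the subunit genes had a median of 6.5 annotated starts each and all genes a median of 3. All 3 antibodies were at a TSS of 4 subunit genes (with SMARCA2, where they lay at different starts) and of 22.1% of all genes.

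Silent genes are part of these backgrounds, and expression was not measured here. Among the 12512 genes with BRG1 at a TSS, ACTL6A was also at one in 58.0% and NRF2 in 43.6%, against 7 and 4 of the 10 subunit genes, so the shares lay close to the background. In the accessory subunits of SWI/SNF, such as ARID1A and PBRM1, 18 of 19 genes had BRG1 at a TSS (94.7%), and in the INO80 and TIP60 complexes 25 of 26 did (96.2%). The median rank of the best BRG1 peak at a TSS was within the top 16.2% for the subunit genes, 18.4% for the accessory genes, 17.6% for the INO80 and TIP60 genes and 18.8% for all genes with one. For ACTL6A the subunit genes stood at 32.7% (7 genes) and all genes at 20.7%, and for NRF2 at 28.8% (4 genes) and 41.8%. The accessory genes stood at 43.9% for ACTL6A and 54.8% for NRF2, and the INO80 and TIP60 genes at 19.4% and 31.7%. No test of these differences was made.

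**Figure D3:**
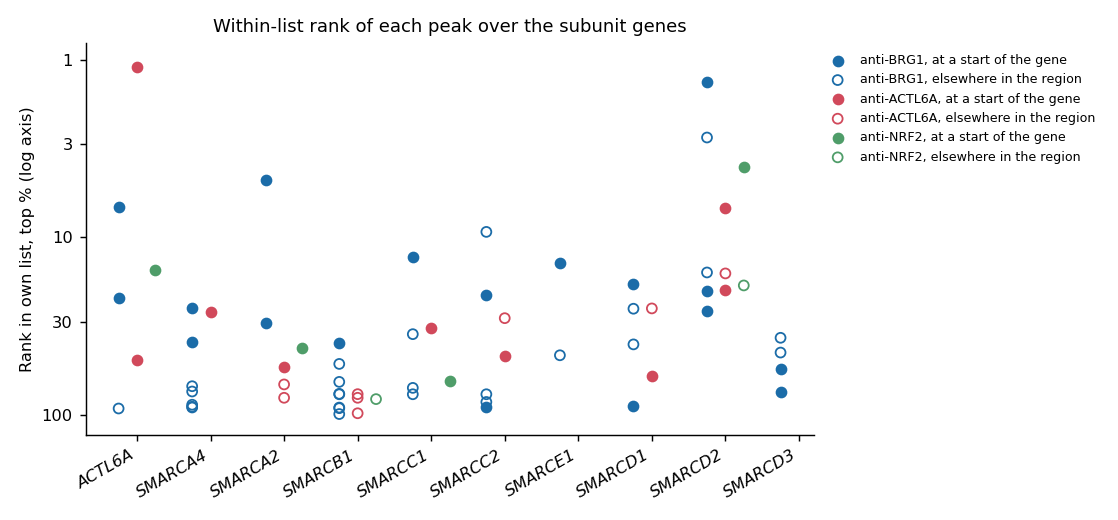
Rank of each peak over the 10 genes within its own list, as the top percent (log axis, highest ranks at the top), for anti-BRG1, anti-ACTL6A and anti-NRF2; filled points lie at a start of the gene and open points elsewhere. The points nearest the top are ACTL6A at its own gene (1.09%) and BRG1 at SMARCD2 (1.33%), while the main-start peak of SMARCD3 stands at 75.0%.

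Over the whole regions, BRG1 had 44 peaks, of which 18 lay at a start of the gene itself, 6 at the start of a neighbour and 20 elsewhere. All 9 BRG1 peaks with 5 or fewer fragments were among those elsewhere. ACTL6A had 17 peaks (9, 1 and 7 in the same order) and NRF2 had 6 (4, 1 and 1). A BRG1 peak was found over 10 of 10 regions and 82.7% of those of all genes. The same was found for ACTL6A over 8 and 66.9%, and for NRF2 over 5 and 41.1%. Per 100 kb there were 4.77 BRG1 peaks, 1.84 ACTL6A peaks and 0.651 NRF2 peaks, against 3.12, 1.38 and 0.594 over the regions of all genes. Among the 10 genes BRG1 ranged from 0.857 per 100 kb at SMARCA2, the longest region, to 16.1 at SMARCD2, the shortest.

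The peaks nearest to the 10 kb limit were as follows. The ACTL6A peak upstream of SMARCD1 (50075157 to 50075444) crossed the limit, which lay at 50075200, and ended 9756 bp before the gene. The BRG1 peak there lay inside the limit and ended 9729 bp before the gene. The nearest outside were a BRG1 peak 10392 bp from SMARCC2 and an NRF2 peak 10463 bp from SMARCA4.

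Most ACTL6A peaks of the regions shared DNA with BRG1. At least 1 bp was shared by 13 of 17 (76.5%, Wilson 95% interval 52.7% to 90.4%), against 49.8% over the whole ACTL6A list. At a TSS the shares were 9 of 10 (59.6% to 98.2%) and 87.1%, and away from one 4 of 7 (25% to 84.2%) and 33.5%, so that both intervals include the share of the list. The 4 ACTL6A peaks without BRG1 had 3 to 4 fragments each. In the other direction, 13 of 44 BRG1 peaks overlapped ACTL6A (29.5%, 18.2% to 44.2%) and 5 overlapped NRF2 (11.4%, 4.95% to 24.0%), against 24.1% and 13.3% of the whole BRG1 list. Of the NRF2 peaks 5 of 6 overlapped BRG1 (83.3%, 43.6% to 97%), against 66.2%. These intervals cover counting error alone, with each peak taken as independent. The pooled ACTL6A shares differ in makeup, since 10 of the 17 peaks lay at a protein-coding TSS, against 30.3% of the list.

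Whether ACTL6A was called beside BRG1 at a TSS moved with the fragments of the BRG1 peak across the whole list. Of the BRG1 peaks at a TSS with 10 to 14 fragments, 23.9% overlapped ACTL6A. The share was 34.0% for 15 to 19, 48.2% for 20 to 29, 66.7% for 30 to 49, 78.1% for 50 to 59 and 90% for 60 or more. For NRF2 it rose from 15.8% to 80.8% over the same classes. The 5 starts without ACTL6A had 13 (SMARCD3), 14 (SMARCB1), 19 (SMARCA4), 20 (SMARCE1) and 51 (SMARCA2) BRG1 fragments, and the 5 with it 23, 24, 27, 38 and 75. SMARCA2 differed from the other 4, and was singled out after its values were seen: 404 of the 517 peaks in its class (78.1%, 74.4% to 81.5%) overlapped ACTL6A. The starts with and without ACTL6A overlapped in BRG1 fragments, since the 51 of SMARCA2 lay between 38 and 75. Why ACTL6A was not called at a start was not tested. At a start without an ACTL6A peak none was called at this depth, and binding below the caller's threshold was not measured.

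**Figure D4:**
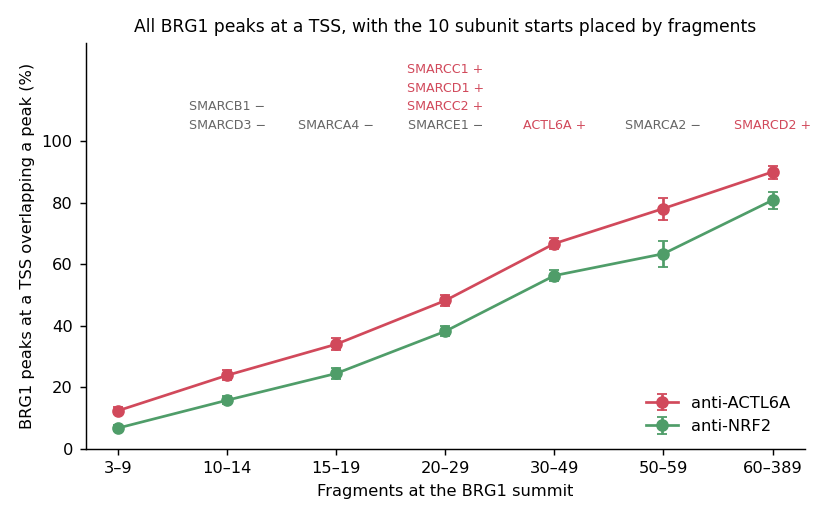
Share of all BRG1 peaks at a TSS that overlap an ACTL6A or NRF2 peak (%), by fragments at the BRG1 summit, with Wilson 95% intervals; the 10 genes are written above their class, with a plus where ACTL6A overlaps and a minus where it does not. The ACTL6A share rises from 12.4% to 90%, and SMARCA2 is the minus in a class where 78.1% overlap.

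The start sites of the 10 genes were rich in GC. One window was taken per gene, around the highest BRG1 peak at its main start. In 200 bp around that summit the median GC content was 69.5%, with 21 CpG, against 67.0% and 16 for all 15165 BRG1 peaks at a TSS. A GC box, the site of SP/KLF factors, was in 7 of 10 windows (all genes but SMARCA4, SMARCC2 and SMARCD1) and in 54.8% of all such windows. A CCAAT box was in 2 (ACTL6A and SMARCD2) against 22.3%, an ETS motif (CCGGAAG) in 2 (SMARCB1 and SMARCC1) against 8.34%, and a TEAD motif in 1 (SMARCC2) against 7.25%. The TEAD match printed for ACTL6A above lay outside this window. The ARE core (TGACNNNGC) was in none of these 10 windows, against 10.4%. In 200 bp around the NRF2 summits, which lay 56 to 143 bp from those of BRG1, it was in none of the 4 main starts with an NRF2 peak, against 10.2% of all 4740 NRF2 peaks at a TSS. The AP-1 motif (TGANTCA) was in none of the 10 windows against 4.80%, and so were an E-box (CACGTG) against 6.12%, a YY1 motif (GCCATNTTG) against 2.03%, a GATA motif (AGATAA) against 1.76%, a CRE (TGACGTCA) against 1.31% and a FOX motif (TGTTTAC) against 1.04%. The other 14 BRG1 peaks at a TSS in the regions, at second peaks, other starts and neighbouring genes, did hold some of these. The ARE core was in 3 of them, in intron 1 of SMARCD2 near the main start and at GPD1 and CHPF2. AP-1 and the YY1 motif were in 1 each, both at CHPF2, where the AP-1 and ARE matches share letters. The E-box was in 1, at GPD1, and the CRE in 1, at MYL6. A GC box was in 7 of the 14, among them the second peaks at the main starts of SMARCC2 and SMARCD1. Both strands were searched, and AP-1 and ARE letters can overlap. A match is a run of letters and no measure of a factor's presence, and the same holds for the lack of one.

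Away from a protein-coding start the windows of the 20 BRG1 peaks had a median GC content of 57.5% with 5 CpG, close to the 58.0% and 4 of all such peaks. The ARE core was in 3 of the 20, in intron 5 of ACTL6A and in introns 13 and 30 of SMARCA4, against 11.9% of all BRG1 peaks away from a TSS. These 3 peaks had 3 to 4 fragments and no NRF2 peak. AP-1 was in none of the 20, against 16.9%.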

How the data were processed

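Peak lists of 5 CUT&Tag libraries of SNU638 cells were used, 1 each for anti-BRG1, anti-ACTL6A and anti-NRF2 and 2 for IgG. The submitters' processing notes name fastp 0.23.0, FastQC, BWA, MACS2, deepTools and HOMER 4.11 and the build hg38. The authors called peaks from uniquely mapped reads with MACS2 by a q-value threshold, and the lowest deposited -log10 q was 1.30. The control given to the caller is not given in the sources used here. The deposited columns are the caller's score, fold enrichment (a ratio with a pseudocount of 1), -log10 p and -log10 q. The study states total reads, which were not used here, and depth was judged by fragments at summits.

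Peaks were placed on GRCh38 with GENCODE release 44, and 0 lay past a chromosome end. A peak was at a TSS when 1 kb or less from the first base of a protein-coding transcript, and rank used -log10 q. Fragments were recovered as the whole number giving both fold and Poisson p within 0.001 on the -log10 scale, for at least 99.1% of each list. All routines had first been tested with simulated data. Genes named were the 10 members, neighbours with a peak at their TSS, and genes of the comparison lists without BRG1. ASIC1 and TCAM1P, which peaks lay in or at, and ARID1A and PBRM1, as examples, were named outside this rule with their values seen. Members and lists were chosen with earlier results of these data known. The ARE search around NRF2 summits was added with the values seen. Alternatives tried were the highest 5000 peaks, a stricter -log10 q (at least 5), IgG-shared peaks left out, other TSS distances, other flanks and a 50% reciprocal overlap. Python 3.11.15, NumPy 2.4.6, pandas 2.3.3, SciPy 1.17.1, pysam 0.24.0, matplotlib 3.10.9 and samtools 1.23.1 were used. No replicate of an antibody was analysed here.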

Additional observations from a re-analysis of the deposited data

How the results depend on the processing

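Of 73 alternative values for 10 results, 58 did not move beyond counting error or 1.5 times, but 30 of these 58 left out IgG-shared peaks and could not move. Without them, 28 held and 15 moved. A -log10 q of at least 5 left ACTL6A at a TSS of 3 of the 10 genes (23.7% of all genes), with 23 BRG1 and 6 ACTL6A peaks in the regions, 100% of those ACTL6A peaks on BRG1 and 100% of NRF2 peaks on BRG1. BRG1 then stood at 9 genes (55.4%) and NRF2 at 3 (17.2%). With the highest 5000 peaks of each list, BRG1 was at a TSS of 3 genes (19% of all genes), ACTL6A of 2 (19.4%) and NRF2 of 3 (18.5%), with 5 BRG1 and 4 ACTL6A peaks in the regions, 50% of ACTL6A and 100% of NRF2 peaks on BRG1, and 80% of BRG1 peaks on NRF2. Both settings keep fewer peaks by construction. With 50 kb to each side the regions held 99 BRG1, 38 ACTL6A and 13 NRF2 peaks. At the MANE Select start alone ACTL6A was at 5 genes. Leaving out peaks shared with IgG, with either IgG library set aside in turn, could change nothing, since no peak of the regions was shared with IgG: BRG1, ACTL6A and NRF2 stayed at a TSS of 10, 7 and 4 genes, with 44, 17 and 6 peaks. No paired analysis was possible because there was only 1 library per antibody. Peaks of 3 to 5 fragments rest on few molecules, and no replicate shows whether they would be called again.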

Other observations

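Beyond the 10 genes, the other lists of chromatin complexes had exceptions by name. ACTL6B, which replaces ACTL6A in the neuronal form of the complex, was the only accessory gene of 19 without a BRG1 peak at a TSS, and INO80B was the only one of 26 INO80 and TIP60 genes. ACTL6A was at a TSS of 9 accessory genes (47.4%) and 17 INO80 and TIP60 genes (65.4%), and NRF2 of 10 (52.6%) and 15 (57.7%). Neither IgG library had a peak at a TSS of either list. BRG1 peaks per 100 kb of region were 5.01 for the accessory genes and 5.36 for the INO80 and TIP60 genes.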
